A study of Mus musculus with 6 samples.

Results

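The kallikrein-related peptidases Klk5 to Klk14 are 10 secreted serine proteases encoded side by side on mouse chromosome 7. All 10 were measured among the 19938 genes of the arrays, each by 1 probe set that the platform annotation gives to that gene alone. The genes were listed by name, and probe sets were chosen by brightness, the mean log2 value over the 6 arrays of both groups, a step without effect here because each gene had only 1. Gene expression was measured in whole FITC-challenged ear skin of 3 CLEC4C-DTR mice and 3 littermate controls, labelled WT in the sample titles. The mice were aged 10 to 12 weeks, with 1 mouse and 1 ear per array. The CLEC4C-DTR mice (CLEC4C-DTR/+) carry the diphtheria toxin receptor under the promoter of the human plasmacytoid dendritic cell gene CLEC4C, which makes these cells sensitive to the toxin. Animals of both genotypes received diphtheria toxin, 200 ng each time, on days -1, 1, 3 and 5. They were sensitised to FITC (fluorescein isothiocyanate, a reactive dye) with 100 µL of a 0.5% solution in acetone and dibutyl phthalate on shaved abdominal skin on days 0 and 2, and were challenged with 20 µL on the right ear on day 6.

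Kallikrein-related peptidases are made as inactive precursors, mostly in the outer layers of the epidermis, and secreted between the cells of the granular and cornified layers. There they activate one another and cut the proteins that hold cornified cells together, so that these cells can be shed. Their activity is held down by inhibitors such as LEKTI, the product of Spink5, whose loss causes the severe barrier disease Netherton syndrome, and they also cut antimicrobial peptides and cell surface receptors in inflamed skin.

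In CLEC4C-DTR skin 6 of the 10 genes were higher than in littermate controls. Klk13 was 7.12-fold, Klk9 5.07-fold, Klk10 3.77-fold and Klk6 3.23-fold higher, and Klk7 and Klk11 were 1.89-fold and 1.78-fold higher. No member fell, and Klk5, Klk8, Klk12 and Klk14 did not pass the test. The test was limma's moderated test across all genes, with a call at a Benjamini-Hochberg adjusted p of 0.05, and by that rule 9.32% of all genes were called, 5.01% higher and 4.31% lower. At least a 2-fold rise was called for 4 members, against 1.67% of all genes. The 3 CLEC4C-DTR values all lay above the 3 control values for 7 members, against 14.0% of all genes, and for no member did they all lie below, against 19.0%. The median difference of the 10 members was 0.88 on the log2 scale, and that of all genes was -0.04.

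**Figure D1:**
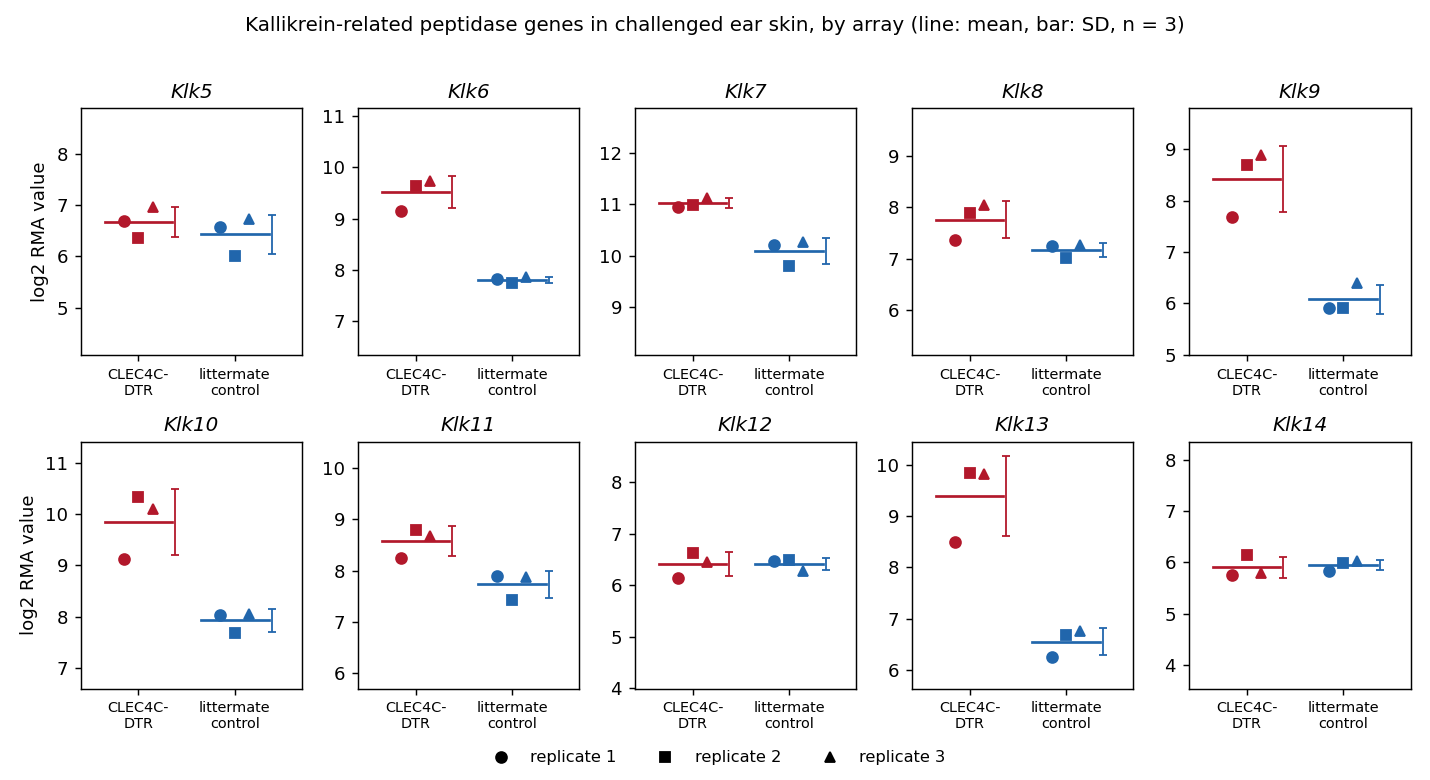
Log2 RMA value (vertical axis, spanning the same number of log2 units in every panel) of each gene in the 3 CLEC4C-DTR mice (red) and the 3 littermate controls (blue). Symbols mark the replicate, the horizontal line is the mean and the bar the SD (n = 3). The groups are apart for Klk6, Klk7, Klk8, Klk9, Klk10, Klk11 and Klk13 and overlap for Klk5, Klk12 and Klk14.

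All values are log2 values made by RMA (background correction, quantile normalisation between arrays and 1 summary per probe set). Because probe sets differ in brightness, the value of one gene is not set against that of another. The arrays' medians over all probe sets lay between 6.17 and 6.23. Every CLEC4C-DTR median (6.1685 to 6.2053) was below every control median (6.2149 to 6.2338). The ear RNA held keratinocyte transcripts in both groups: Krt14, a keratin of the basal layer, lay at 12.03 to 12.22 in CLEC4C-DTR mice and 12.01 to 12.14 in controls, and Krt10, a keratin of the layers above, at 11.92 to 12.56 in CLEC4C-DTR mice and 12.71 to 12.85 in controls. In whole skin, a change in the number of cells that make a transcript and a change in RNA per cell cannot be told apart. Every ear analysed here was challenged and every mouse had received toxin, so that no level of these genes in resting skin or without toxin is known from these arrays.

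The trypsin-like peptidases Klk5 and Klk14, which in human epidermis are regarded as starters of the activation cascade, did not pass the test. Klk5 had values of 6.68, 6.36 and 6.96 in CLEC4C-DTR replicates 1, 2 and 3, against 6.58, 6.00 and 6.72 in littermate control replicates 1, 2 and 3. The 2 groups overlapped, and the lowest value was that of control replicate 2. The difference was 0.24 (SE 0.21, adjusted p = 0.518), and its 95% interval, -0.25 to 0.72, corresponds to 0.842-fold to 1.65-fold. Klk14 had values of 5.75, 6.14 and 5.80 in CLEC4C-DTR mice, against 5.84, 5.98 and 6.03 in controls. Its groups overlapped as well, and its difference was -0.05 (SE 0.12, adjusted p = 0.828), with an interval of 0.80-fold to 1.17-fold. For both genes the interval leaves out a 2-fold rise, the threshold that the study's design text names.

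Klk7 and Klk8 encode peptidases that take part in shedding of cornified cells. Klk7, a chymotrypsin-like enzyme that cuts corneodesmosin, had values of 10.94, 10.98 and 11.13 in CLEC4C-DTR mice, against 10.21, 9.80 and 10.27 in controls. The CLEC4C-DTR values were close together and all above the controls, of which replicate 2 was the lowest. Klk7 rose by 0.92 (SE 0.13, adjusted p = 0.0140), and the call was lost without CLEC4C-DTR replicate 3 (adjusted p = 0.0577) or littermate control replicate 3 (adjusted p = 0.0519). Klk8, also called neuropsin and known from the hippocampus as well as from epidermis, had values of 7.36, 7.88 and 8.04 in CLEC4C-DTR mice, against 7.24, 7.01 and 7.27 in controls. Here CLEC4C-DTR replicate 1 lay just above the highest control, and the other 2 stood clear of it. The difference of 0.59 (SE 0.17, adjusted p = 0.0702) missed the threshold with all arrays and passed it without CLEC4C-DTR replicate 1 (0.79, adjusted p = 0.00547) and with arrays weighted by their quality (adjusted p = 0.0433).

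Klk13 had the largest difference of the family. This trypsin-like peptidase had values of 8.50, 9.84 and 9.82 in CLEC4C-DTR mice, against 6.25, 6.68 and 6.76 in controls. All 3 CLEC4C-DTR values stood well above the controls, and replicate 1 was the lowest of them. Klk13 rose by 2.83 (SE 0.34, adjusted p = 0.00989), which is rank 23 of 19938 when all genes are ordered from the largest rise. It also passed in each of the 6 fits with 1 array left out, with differences of 2.60 to 3.28 and a highest adjusted p of 0.0498.

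Klk9 and Klk10, which lie next to each other on the chromosome, had the next largest differences. Klk9, whose human counterpart is chymotrypsin-like, had values of 7.68, 8.69 and 8.88 in CLEC4C-DTR mice, against 5.92, 5.91 and 6.40 in controls. It rose by 2.34 (SE 0.30, adjusted p = 0.0112), rank 46 of all genes. Klk9 passed in each of the 6 fits with 1 array left out, with a highest adjusted p of 0.0498. Every CLEC4C-DTR value was above every control value, with replicate 1 again the lowest of its group. Klk10, first described in human cells as normal epithelial cell-specific 1, had values of 9.12, 10.33 and 10.09 in CLEC4C-DTR mice, against 8.04, 7.68 and 8.06 in controls. It rose by 1.92 (SE 0.29, adjusted p = 0.0146), rank 77. Its 2 groups were apart too, but the call was lost without CLEC4C-DTR replicate 3 (adjusted p = 0.0601), littermate control replicate 1 (adjusted p = 0.0544) or littermate control replicate 3 (adjusted p = 0.0684).

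Klk6, a trypsin-like peptidase also known as neurosin and abundant in the nervous system, had the smallest p of the family. Its values were 9.15, 9.63 and 9.74 in CLEC4C-DTR mice, against 7.82, 7.75 and 7.87 in controls. The controls were nearly alike (SD 0.06, n = 3), whereas the CLEC4C-DTR mice differed more (SD 0.31, n = 3). Klk6 rose by 1.69 (SE 0.15, adjusted p = 0.00802), rank 109. It passed in each of the 6 fits with 1 array left out, with a highest adjusted p of 0.046.

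Klk11, a peptidase of epithelia and brain, had values of 8.24, 8.78 and 8.68 in CLEC4C-DTR mice, against 7.90, 7.43 and 7.87 in controls. The groups were apart, with CLEC4C-DTR replicate 1 nearest to the controls and control replicate 2 the lowest. Klk11 rose by 0.84 (SE 0.17, adjusted p = 0.0287). With 1 array left out it passed only without CLEC4C-DTR replicate 1 (adjusted p = 0.00691). Leaving out CLEC4C-DTR replicates 2 or 3 gave an adjusted p of 0.0814 or 0.0963, and leaving out littermate control replicates 1, 2 or 3 gave 0.0661, 0.0577 or 0.0903.

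Klk12, whose human counterpart cuts matricellular proteins, had values of 6.15, 6.63 and 6.46 in CLEC4C-DTR mice, against 6.47, 6.49 and 6.27 in controls. The group means were both 6.41, and the lowest and highest values were both from CLEC4C-DTR mice. The difference was 0.00 (SE 0.13, adjusted p = 0.999), with a 95% interval of 0.81-fold to 1.23-fold. The deposited table holds no measure of background, so that no member could be called absent.

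Some arrays took the same place in most members. CLEC4C-DTR replicate 1 had the lowest value of its group in 9 of the 10 genes, Klk5 being the exception, whereas CLEC4C-DTR replicates 2 and 3 were each the highest in 5. Control replicate 2 was the lowest of the controls in 7 genes, which are Klk5 to Klk11, and control replicate 3 the highest in 8. Averaged over the 10 members, CLEC4C-DTR replicates 1, 2 and 3 stood 0.74, 1.31 and 1.34 above the mean of the controls, and control replicates 1, 2 and 3 stood at 0.01, -0.14 and 0.13. The smaller shift of replicate 1 was not shared evenly, since it was 1.95 against 3.29 and 3.26 for Klk13 but 0.85 against 0.88 and 1.03 for Klk7.

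**Figure D2:**
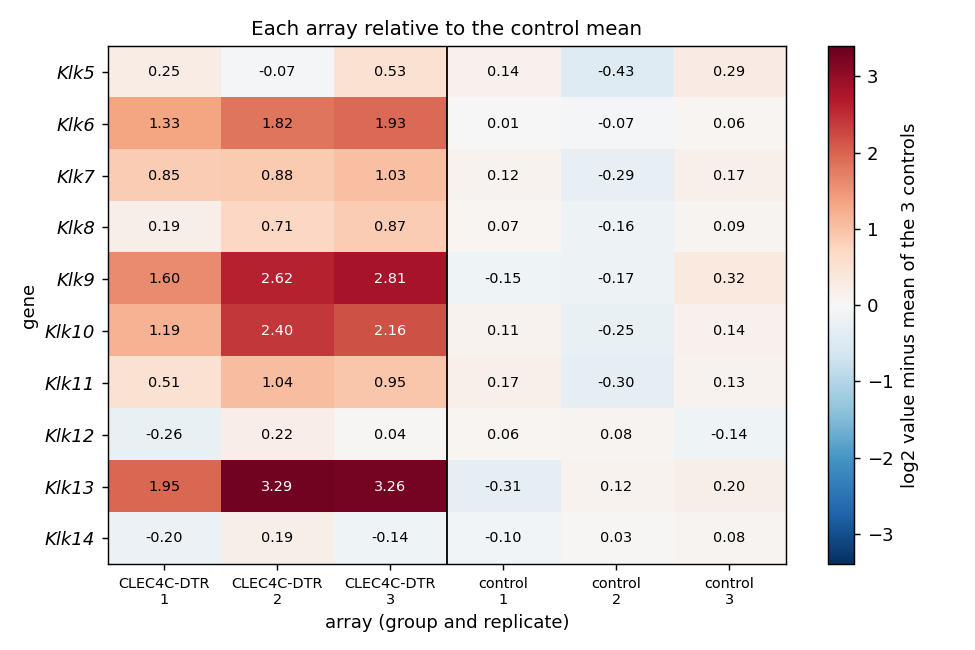
Log2 value of each gene on each array minus the mean of the 3 controls of that gene (colour and printed value), with CLEC4C-DTR arrays left of the line and controls right of it. The shift of Klk13 is 1.95, 3.29 and 3.26 in CLEC4C-DTR replicates 1, 2 and 3, whereas Klk12 and Klk14 stay within 0.26 of the control mean on every array.

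Likeness of pattern was measured as the root mean square difference between the log2 values of 2 genes over the 6 arrays, after the mean of each gene was subtracted. Among the members the nearest pairs were Klk12 with Klk14 (0.14), Klk7 with Klk11 (0.15) and Klk8 with Klk11 (0.16). The farthest pair was Klk13 with Klk14 (1.49). Klk6 with Klk10 (0.26), Klk9 with Klk10 (0.28) and Klk9 with Klk13 (0.30) were the nearest pairs among the 4 members with more than 2-fold rises.

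Outside the family, the genes nearest to each called member were found among all genes by the same measure. For Klk6 they were S100a9 (0.16) and S100a8 (0.16), the subunits of calprotectin, and the acute phase gene Saa2 (0.17). Klk13 was nearest to the stefin gene Csta3 (0.21), the small proline-rich gene Sprr2h (0.23) and the collagenase gene Mmp13 (0.28). Klk9 was nearest to the retinol-binding protein gene Rbp2 (0.11), the lipoxygenase gene Alox8 (0.24) and the connexin gene Gjb6 (0.30). Klk10 was nearest to Entpd1, an ectonucleotidase (0.16), the costimulatory gene Cd80 (0.18) and Wfdc17 (0.18). Klk7 was nearest to the carboxypeptidase gene Cpa4 (0.11), the dehydrogenase gene Sdr9c7 (0.14) and Ceacam19 (0.15), and Klk11 to the transcription factor gene Elf5 (0.09), Akr1b8 (0.11) and the lactate transporter gene Slc16a1 (0.11). With 6 arrays in 2 groups, genes with a rise of like size come out as near by this measure.

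The family was then set in its order on chromosome 7, taken from the RefSeq gene table. From one end the members run Klk14, Klk13, Klk12, Klk11, Klk10, Klk9, Klk8, Klk7, Klk6 and Klk5, followed by Klk4 and Klk15. The 6 members from Klk11 to Klk6 form a run in which the groups were apart for every gene, and Klk8 was the 1 gene of the run that did not pass the test. The run is bordered by Klk12 and Klk5, whose groups overlapped, and Klk13 lies beyond Klk12 on one side. Klk4, known for its role in tooth enamel, differed by -0.16 (SE 0.11, adjusted p = 0.375) and Klk15 by -0.07 (SE 0.08, adjusted p = 0.631). Beyond Klk14, Ctu1, an enzyme of transfer RNA modification, differed by -0.11 (SE 0.07, adjusted p = 0.350), and the next gene, Siglece, a lectin of myeloid cells, rose by 1.75 (SE 0.37, adjusted p = 0.0299). With 1 array left out, Siglece passed only where CLEC4C-DTR replicate 1 was missing (adjusted p = 0.00233), and the other 5 fits gave 0.0504 to 0.117.

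**Figure D3:**
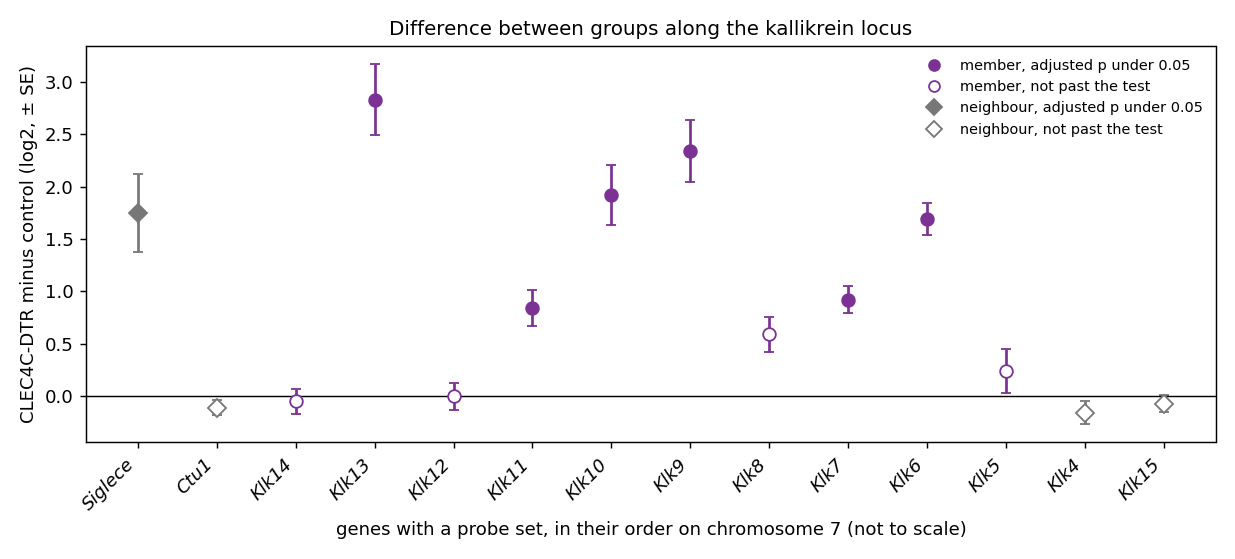
Difference between CLEC4C-DTR and littermate control mice (log2, ± SE of limma, 3 mice per group) for the genes with a probe set around the kallikrein locus, in their order on chromosome 7 and not to scale. Filled symbols passed an adjusted p of 0.05. Klk13 (2.83) lies between Klk14 (-0.05) and Klk12 (0.00).

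The windows around the annotated start are shown for the 3 members with the largest rises and for Klk12, the member with the smallest difference, which lies next to Klk13, so that members with and without a rise can be read side by side. Each holds 250 bases before and 50 bases after a start in RefSeq, on the plus strand of build GRCm38.p6, and runs 5′ to 3′. Capitals mark CACCC, the core bound by Krüppel-like factors, and TTCNNNGAA, the core bound by STAT factors, on either strand.
Klk13, chr7:43712317-43712616: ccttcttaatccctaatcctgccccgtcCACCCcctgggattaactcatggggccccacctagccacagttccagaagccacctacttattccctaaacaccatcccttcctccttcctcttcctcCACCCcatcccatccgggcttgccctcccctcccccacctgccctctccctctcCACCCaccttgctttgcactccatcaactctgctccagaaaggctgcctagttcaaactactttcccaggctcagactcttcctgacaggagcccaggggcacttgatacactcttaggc
Klk9, chr7:43791641-43791940: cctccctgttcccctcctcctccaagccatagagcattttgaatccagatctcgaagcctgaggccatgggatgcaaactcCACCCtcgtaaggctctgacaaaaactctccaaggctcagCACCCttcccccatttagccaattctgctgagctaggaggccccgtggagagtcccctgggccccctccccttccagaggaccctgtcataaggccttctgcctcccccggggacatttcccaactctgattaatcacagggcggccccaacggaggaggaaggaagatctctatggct
Klk10, chr7:43780804-43781103: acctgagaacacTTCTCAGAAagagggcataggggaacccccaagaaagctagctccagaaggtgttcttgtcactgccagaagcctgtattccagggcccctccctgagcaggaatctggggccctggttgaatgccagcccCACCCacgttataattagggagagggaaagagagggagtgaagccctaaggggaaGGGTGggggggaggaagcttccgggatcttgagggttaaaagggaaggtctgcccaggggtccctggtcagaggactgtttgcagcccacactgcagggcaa
Klk12, chr7:43768850-43769149: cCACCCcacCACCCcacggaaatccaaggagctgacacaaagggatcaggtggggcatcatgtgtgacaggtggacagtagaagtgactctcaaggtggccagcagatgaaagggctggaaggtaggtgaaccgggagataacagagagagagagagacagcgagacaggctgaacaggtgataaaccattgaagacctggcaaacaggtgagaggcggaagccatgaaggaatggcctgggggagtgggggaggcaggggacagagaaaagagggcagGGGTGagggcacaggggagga

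All 10 members matched an entry of the RefSeq promoter table, which held 12 windows for them, 2 each for Klk6 and Klk11. CACCC was present in 9 of the 12 windows and in 9 of the 10 members, Klk12 and Klk14 among them and Klk8 not, and in 57.5% of the 32851 windows of the table. TTCNNNGAA was present in the window of Klk10 alone, against 8.30% of all windows. Of the other motifs searched on both strands, a loose form of the NF-kB site, GGG and CC with any 5 bases between, was present in 9 of the 12 windows (50.8% of all windows) and TTGCNNAA, bound by C/EBP factors, in both windows of Klk11 (10.8%). TGANTCA, the AP-1 site, was found in none of the 12 (7.81% of all windows), nor was AACNNGTT, part of the Grainyhead-like site (4.20%). Matches of the different motifs can overlap. Members with large rises and members without a call both held CACCC.

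Genes that work with the peptidases were taken from lists of inhibitors, activators and targets. Of the 8 inhibitors measured, 1 rose and 1 fell. Slpi, the secretory leukocyte protease inhibitor, had values of 9.80, 10.84 and 10.52 in CLEC4C-DTR mice, against 8.51, 8.60 and 8.23 in controls. It rose by 1.94 (SE 0.24, adjusted p = 0.0108), and the call was lost without CLEC4C-DTR replicate 3 (adjusted p = 0.0526) or littermate control replicate 3 (adjusted p = 0.0564). Spink5, the LEKTI gene, had values of 10.32, 10.26 and 10.34 in CLEC4C-DTR mice, against 10.43, 9.91 and 10.42 in controls. These overlapped, with a difference of 0.06 (SE 0.14, adjusted p = 0.836). A2m, the broad plasma protease inhibitor alpha-2-macroglobulin, fell by 0.51 on the log2 scale (SE 0.10, adjusted p = 0.0244). With 1 array left out, A2m passed only without CLEC4C-DTR replicate 1 (adjusted p = 0.0225). The coagulation inhibitor Serpinc1 differed by -0.21 (adjusted p = 0.227) and Serpina5, the protein C inhibitor, by 0.22 (adjusted p = 0.305).

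Of 7 genes of the matriptase cascade and the meprins, 1 rose. Spint1, an inhibitor of matriptase, rose by 0.37 (SE 0.09, adjusted p = 0.0431), and with 1 array left out it passed only without CLEC4C-DTR replicate 1 (adjusted p = 0.0360). St14, which encodes matriptase, an activator of kallikrein precursors, had values of 8.02, 7.93 and 8.01 in CLEC4C-DTR mice, against 7.76, 7.79 and 7.59 in controls. Its groups were apart, but the difference of 0.28 (SE 0.09) missed the threshold (adjusted p = 0.0814). The transmembrane protease gene Tmprss13 differed by 0.44 (adjusted p = 0.104) and Prss8, the prostasin gene, by -0.11 (adjusted p = 0.708).

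Of 3 corneodesmosome genes, whose products the peptidases cut during shedding, 0 passed limma's test and 0 had an unadjusted p below 0.05. Of all 19938 genes, 5437 had an unadjusted p below 0.05. Cdsn, the corneodesmosin gene, differed by 0.15 (SE 0.22, adjusted p = 0.717), Dsg1b, a desmoglein gene, by 0.29 (SE 0.13, adjusted p = 0.210) and Dsg1c by -0.22 (SE 0.18, adjusted p = 0.482). Dsg1a, Dsc1 and the receptor gene F2rl1 were not analysed here. Of 3 other targets or downstream genes, 1 rose, the cytokine gene Il1b, by 2.43 (SE 0.43, adjusted p = 0.0192). With 1 array left out, Il1b passed without CLEC4C-DTR replicate 1 (adjusted p = 0.00119) or littermate control replicate 2 (adjusted p = 0.0334), and in none of the other 4 fits, where its highest adjusted p was 0.0820. Camp, the precursor gene of the cathelicidin that KLK5 and KLK7 process in human skin, differed by -0.08 (adjusted p = 0.552) and the cytokine gene Tslp by 0.07 (adjusted p = 0.881).

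Of 7 further protease genes of the cornified layers, 1 rose. Blmh, the bleomycin hydrolase that breaks down filaggrin peptides, rose by 0.80 (SE 0.17, adjusted p = 0.0287), and with 1 array left out it passed only without CLEC4C-DTR replicate 1 (adjusted p = 0.00734). The caspase gene Casp14 differed by 0.46 (adjusted p = 0.358), the retroviral-like protease gene Asprv1 by 0.23 (adjusted p = 0.659), and the cathepsin genes Ctsd and Ctsl by 0.13 and 0.16 (adjusted p = 0.410 and 0.483).

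Of 11 other tissue kallikrein genes with a value, 0 passed limma's test. An unadjusted p below 0.05 was found for 1 of them (Klk1b24, 0.35, adjusted p = 0.130), against 5437 of all 19938 genes. The median difference of that list was 0.00, that of the inhibitors 0.07, of the matriptase list 0.05, of the corneodesmosome genes 0.15 and of the other proteases 0.16, beside -0.04 for all genes. Close sequence between members of the Klk1b group means that probes may be shared between them. Klk1 was not analysed here.

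**Figure D4:**
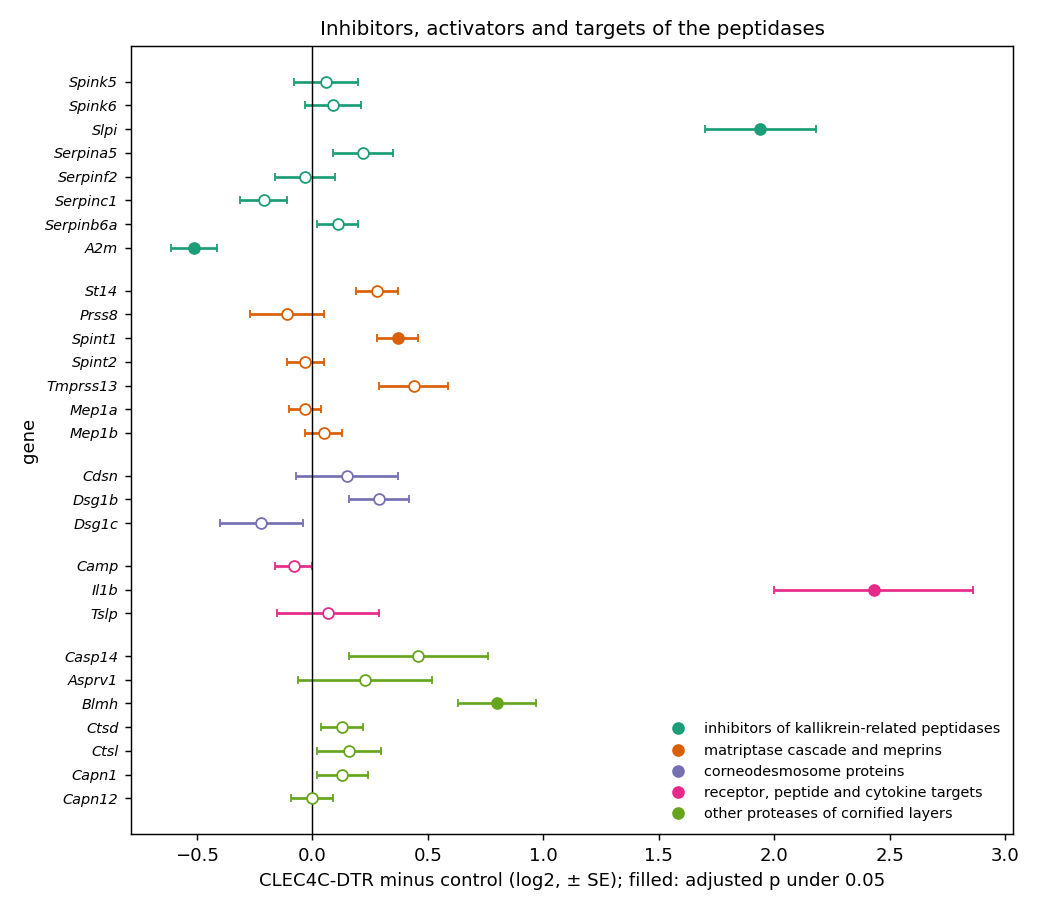
Difference between CLEC4C-DTR and littermate control mice (horizontal axis, log2, ± SE of limma, 3 mice per group) for the listed inhibitors, activators, targets and other proteases, coloured by list. Filled points passed an adjusted p of 0.05. Slpi (1.94), Il1b (2.43), Blmh (0.80) and Spint1 (0.37) were higher and A2m (-0.51) lower.

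Other cell types and layers also differed between the groups, and their part in the differences of the peptidase genes was not tested. Of 13 granular and cornified keratinocyte markers, 1 rose and none fell, and their mean level stood at -0.42 to 0.23 in CLEC4C-DTR mice and -0.21 to 0.12 in controls, relative to the control mean. The 1 that rose was Tgm1, a crosslinking enzyme, by 1.57 (SE 0.24, adjusted p = 0.0146). The calls of Tgm1 and Krt15 were lost when CLEC4C-DTR replicate 3 or one of control replicates 1 and 3 was left out (adjusted p of 0.0574 to 0.0724 and of 0.0620 to 0.0881). The filaggrin-like gene Flg2 differed by -1.72 (SE 0.53, adjusted p = 0.0803). Every CLEC4C-DTR value was under every control value for Krt10 (-0.46, adjusted p = 0.120) and Krt2 (-0.60, adjusted p = 0.121). The groups were apart the other way for Tgm1 and for Abca12 (0.58, adjusted p = 0.0853). That is 2 of 13 in each direction, against 19.0% of all genes lower and 14.0% higher. Limma's unadjusted p was under 0.05 for 6 of the 13, in both directions, which a mean level can hide. It was under 0.05 for 5437 of all 19938 genes. Of 8 basal markers 1 fell, the keratin gene Krt15, by 1.59 on the log2 scale (SE 0.28, adjusted p = 0.0193), and their mean stood at -0.54 to -0.21 against -0.04 to 0.04. For 5 of the 8, against 19.0% of all genes, every CLEC4C-DTR value was under every control value. Among them, Col17a1 (-0.36, adjusted p = 0.103), Trp63 (-0.33, adjusted p = 0.110) and Dst (-0.31, adjusted p = 0.0589) did not pass the test. The groups overlapped for Krt5 (-0.15), Krt14 (0.02) and Itgb4 (-0.14). With CLEC4C-DTR replicate 1 left out, 4 basal markers and 2 granular and cornified markers were called lower, and 2 granular and cornified markers higher. Of 8 sebaceous gland markers 5 fell, against 4.31% of all genes, among them Elovl3, by 1.09, and Scd3, by 0.84, on the log2 scale. The mean of the 8 stood at -0.73 to -0.39 against -0.07 to 0.04. Leaving out CLEC4C-DTR replicate 2 or 3, or any of the 3 controls, cut the sebaceous count to between 0 and 2. In those fits 18 to 489 of all genes were called lower. Of 9 hair shaft and root sheath markers 0 passed limma's test, 0 had an unadjusted p below 0.05, and their mean stood at -0.18 to -0.13 against -0.05 to 0.04.

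Of 11 neutrophil markers 7 rose and none fell, against 5.01% of all genes called higher and 4.31% called lower. Their mean stood 0.89, 1.95 and 1.79 above the control mean in CLEC4C-DTR replicates 1, 2 and 3, and at -0.14 to 0.09 in controls. S100a9 rose by 1.49 (SE 0.13, adjusted p = 0.00802) and Retnlg, a resistin-like gene of neutrophils, by 2.92 (SE 0.40, adjusted p = 0.0126). S100a9 passed in each of the 6 fits with 1 array left out. Retnlg lost its call without CLEC4C-DTR replicate 3 (adjusted p = 0.0528) or littermate control replicate 3 (adjusted p = 0.0614). The primary granule genes Elane and Mpo, which mature neutrophils no longer transcribe, differed by 0.00 (adjusted p = 0.985) and -0.19 (adjusted p = 0.337), and are named here after their values were seen. Ngp and Ltf did not pass the test either, with differences of 1.20 (adjusted p = 0.0689) and 0.31 (adjusted p = 0.134). Of 9 monocyte and macrophage markers 7 rose and none fell, against the same shares of all genes. Their means were 0.85, 1.06 and 1.30 in CLEC4C-DTR replicates 1, 2 and 3, and -0.25 to 0.21 in controls. Cd68, a lysosomal gene of macrophages, rose by 0.92 (SE 0.10, adjusted p = 0.00937). Lyz2 and Adgre1 did not pass the test, with differences of -0.21 (adjusted p = 0.139) and 0.36 (adjusted p = 0.132). For Lyz2 every CLEC4C-DTR value was under every control value. The count of called neutrophil markers was 4 without CLEC4C-DTR replicate 2, 3 without control replicate 1, and 2 when replicate 3 of either group was left out. For macrophage markers the count was 4 or 1 when CLEC4C-DTR replicate 2 or 3 was left out, and 2 when control replicate 1 or 3 was left out. In those fits 49 to 289 of all 19938 genes were called higher. Like the mean of the peptidase genes, both list means were lowest in CLEC4C-DTR replicate 1 among the CLEC4C-DTR mice. Of 8 markers of plasmacytoid dendritic cells, the cells that the transgene is meant to target, 0 passed limma's test, and their mean stood at -0.08 to -0.01 against -0.14 to 0.14. An unadjusted p of limma below 0.05 was found for 2 of them, against 5437 of all 19938 genes. These 2 differed in opposite directions: Bst2, an interferon-induced gene, by 0.57 (adjusted p = 0.140) and the transcription factor gene Tcf4 by -0.41 (adjusted p = 0.0729). With littermate control replicate 2 left out, 2 of these markers were called higher, and with CLEC4C-DTR replicate 1 left out, 1 was called lower. Whether the number of plasmacytoid dendritic cells differed was not tested, and levels of these markers in whole skin cannot tell it.

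**Figure D5:**
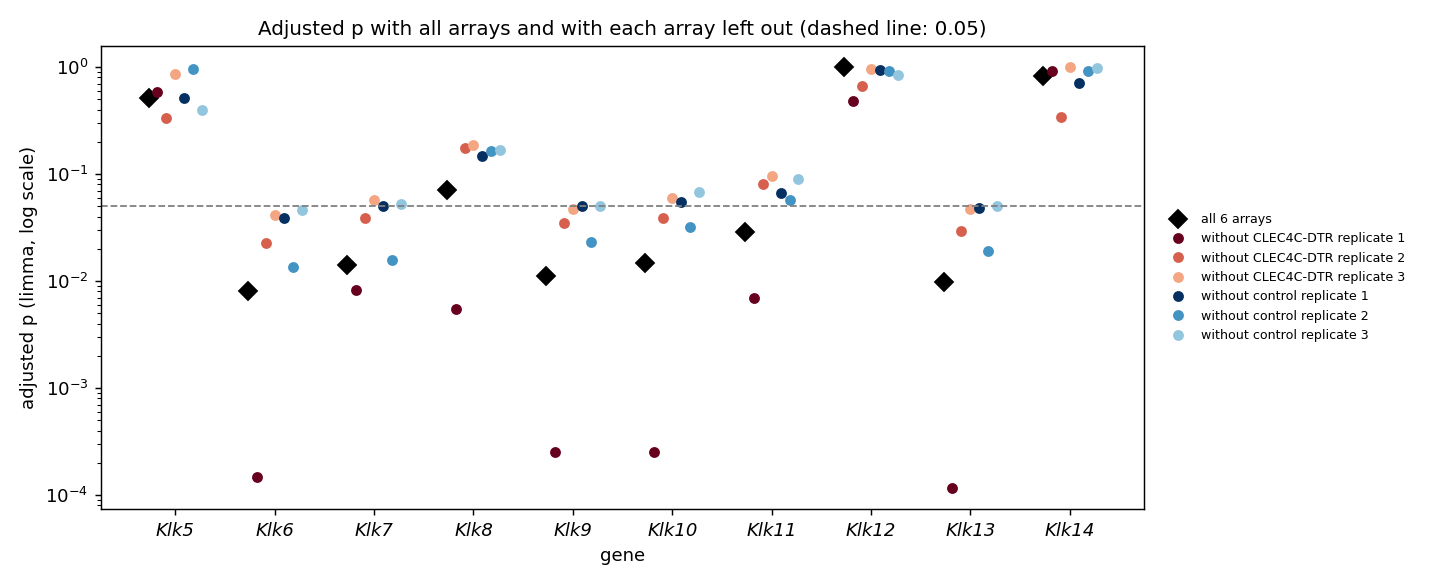
Benjamini-Hochberg adjusted p of limma (vertical axis, log scale) for each gene with all 6 arrays (black diamond) and with each array left out (circles), with a dashed line at 0.05. Klk6, Klk9 and Klk13 stay under the line in each of the 6 fits, and the lowest values of Klk6 to Klk11 and Klk13 are those without CLEC4C-DTR replicate 1.

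With CLEC4C-DTR replicate 1 left out, 7 members passed the test. With replicate 2 of either group left out, 5 passed, and with control replicate 1 left out, 4. With replicate 3 of either group left out, 3 passed, which were Klk6, Klk9 and Klk13 in both cases.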

How the data were processed

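Per the labels, RNA of ear skin from 6 mice was measured on 6 Affymetrix mouse gene arrays. The deposited values are log2 values that the authors made by RMA, per the series' design text, with the scale read from the values (1.60 to 13.90). Which program ran RMA is not stated, and mm8 is the only build in the submitters' processing notes. Of 35556 probe sets, 21789 have 1 gene symbol in the platform annotation, 1621 have several and 12146 are unlisted. The brightest single-symbol probe set per gene gave 19938 genes, named through the RefSeq table of GRCm38.p6 (21698 probe sets matched by Entrez identifier, 91 did not), and none was left out for a low level. The 2 groups were compared with limma 3.58.1 in R 4.3.3 (lmFit, eBayes), two-sided, adjusted over all genes, with a call at 0.05. Differences are CLEC4C-DTR minus control (log2), with limma's SE. The replicates are separate mice, and 3 arrays per group limit the precision. With 3 against 3, an exact permutation test of 1 gene cannot go below 0.1.

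The members, gene lists and tests were chosen with earlier results of these data known. Named genes are all members, set genes of each pathway list, up to 4 genes of a list with the smallest p, the 3 genes nearest in pattern to each called member, and chromosomal neighbours. Of the genes that this rule covers in the cell type lists, only some are printed. Elovl3, Krt2, Krt5, Krt14, Itgb4, Elane, Mpo, Ngp, Ltf, Lyz2 and Adgre1 lie outside this rule and were named with their values known. The fit was also run on simulated data with set changes, in which noise was drawn independently for each gene. Its outcome is not given here, and it does not bear on how far calls depend on single arrays. Alternatives changed the scaling, the moderation, the weights of arrays or the choice of probe sets, left out dim genes or single arrays, or added a replicate block. Python 3.11.15 with matplotlib 3.10.9 drew the figures.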

Additional observations from a re-analysis of the deposited data

How the results depend on the processing

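The count of members called higher, 6 with all arrays, stayed at 6 or 7 under 8 of 9 other settings, and 0 members were called lower under any. With variances not moderated across genes, limma called 0 members and 0 of all genes in either direction, where 6 members and 4387 genes had an unadjusted p under 0.05. With 1 array left out, 3 to 7 members were called higher, as were 49 to 1342 of all genes (998 with all arrays), and 18 to 1275 of all genes were called lower (860 with all arrays). Under the other settings the differences of the 6 called members kept their sign. Klk12, at 0.00 with all arrays, differed by 0.032 after median centring, 0.039 after a further quantile normalisation and 0.005 with array weights, and by -0.11 to 0.13 with 1 array left out. Klk14 differed by 0.01 after the further quantile normalisation and by -0.17 to 0.024 with 1 array left out. Neither passed the test in any fit, and the cause was not tested. The filter on dim genes left out Klk12 and Klk14. Whether equal replicate numbers pair the arrays was not settled. The deviations of arrays with equal numbers 1, 2 and 3 correlated across genes at -0.06, 0.217 and 0.104. Those of arrays with unlike numbers correlated at -0.269 to 0.177, a range that overlaps, so these values cannot decide it. With the replicate block, 6 members, 1159 genes higher and 925 genes lower were called. Of 390 counts over the other gene lists, 326 stayed within 1.5 times the count with all arrays. Many counts were 0 with all arrays, and a 0 that stayed 0 is among the 326. With 1 array left out, 47 of 156 counts moved further, and under the other settings 17 of 234 did. The number of arrays and the lack of a background measure limit what can be said of dim genes.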
